A study of Homo sapiens with 20 samples.

Results

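DOHH2 and U2932 are established human B cell lines, each labelled in the series as a line of diffuse large B cell lymphoma, and the comparison here is of the lines themselves. It rests on the 3 DOHH2 libraries and the 3 U2932 libraries whose cells received only DMSO, the solvent, for 8 h, which is 6 of the 20 libraries of the series. The other 14 libraries hold the same lines in DMSO for 18 h or with a compound labelled TK for 8 h or 18 h. Polyadenylated RNA was sequenced and the counts per gene are the authors' own. Each line comes from a single tumour, and the labels leave unsaid whether replicates are separate cultures, so each p-value measures only the spread between these libraries. A difference between DOHH2 and U2932 is therefore a difference between 2 lines and not between 2 classes of lymphoma.

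Mature B cells pass through the germinal centre, where BCL6 holds a programme of rapid division and antibody gene mutation, and leave it through activated states, in which IRF4 is induced, toward the plasma cell, in which PRDM1 and XBP1 drive antibody secretion. Large B cell lymphomas are commonly divided by which of these states their RNA resembles. In the literature DOHH2 is usually placed in the germinal centre class and U2932 in the activated class. The labels give neither class, and most of the markers described below ran against that placement, so the lines are called here by their names alone. The identity of the lines was taken from the labels and was not tested; if the labels were exchanged, every direction given here would turn round.

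The 6 libraries held between 31010685 and 46098646 counts assigned to genes. Of 34160 genes with a count, 16478 passed the filter on low counts and were tested with edgeR's quasi-likelihood test, with the Benjamini-Hochberg adjustment over all of them and a threshold of 0.05. Levels are given as CPM, a gene's count relative to its library's total after TMM scaling, and a log2 difference is DOHH2 minus U2932. Both lines carried the B cell markers: CD79A was at 468 CPM in DOHH2 against 409 CPM in U2932 and PAX5 at 173 CPM in DOHH2 against 332 CPM in U2932. Of 24 markers of T, NK, myeloid, erythroid, stromal and epithelial cells, 13 passed the filter, and their summed level was 17.4 to 29.6 CPM in the DOHH2 libraries and 33.4 to 37.9 CPM in the U2932 libraries. The T cell marker CD3D and the myeloid marker S100A8 had no count in either line, but other markers of these cells did. Of 6 T cell markers 3 passed the filter, with 1 higher and 2 lower in DOHH2. Of 6 myeloid markers 4 passed the filter, with 1 higher and 2 lower in DOHH2. Most of these sums came from single genes, the collagen COL1A1 at 16.4 CPM in DOHH2 against 0.393 CPM in U2932 and the epithelial adhesion molecule EPCAM at 0.0223 CPM in DOHH2 against 29.04 CPM in U2932. Reads assigned to more than 1 place made up 29.5% to 34.3% of the DOHH2 reads and 20.7% to 25.1% of the U2932 reads, and ribosomal protein genes took 11.7% to 12.8% of the counts in DOHH2 and 8.26% to 9.78% in U2932; the part of either in the results was not tested.

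The lines differed in most of the genes they express. Of the 16478 genes tested, 11177 passed the test (67.8%), with 5432 higher in DOHH2 (33.0%) and 5745 lower (34.9%). The median difference over all genes was -0.03 on the log2 scale and the median size of a difference was 0.82. The 3 DOHH2 libraries did not overlap the 3 U2932 libraries in 12166 genes (73.8%), with DOHH2 above in 5923 (35.9%) and below in 6243 (37.9%). Lack of overlap, where given below for single genes, was thus common to most genes tested. At least a doubling or halving stood behind 6942 of the calls (42.1%), 3129 of them higher and 3813 lower in DOHH2. At the extreme, 573 genes were higher and 902 lower by a log2 difference of at least 5. Against this background 40 lists of genes were read, each by how far its share in 1 direction stood from those of all genes.

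**Figure D1:**
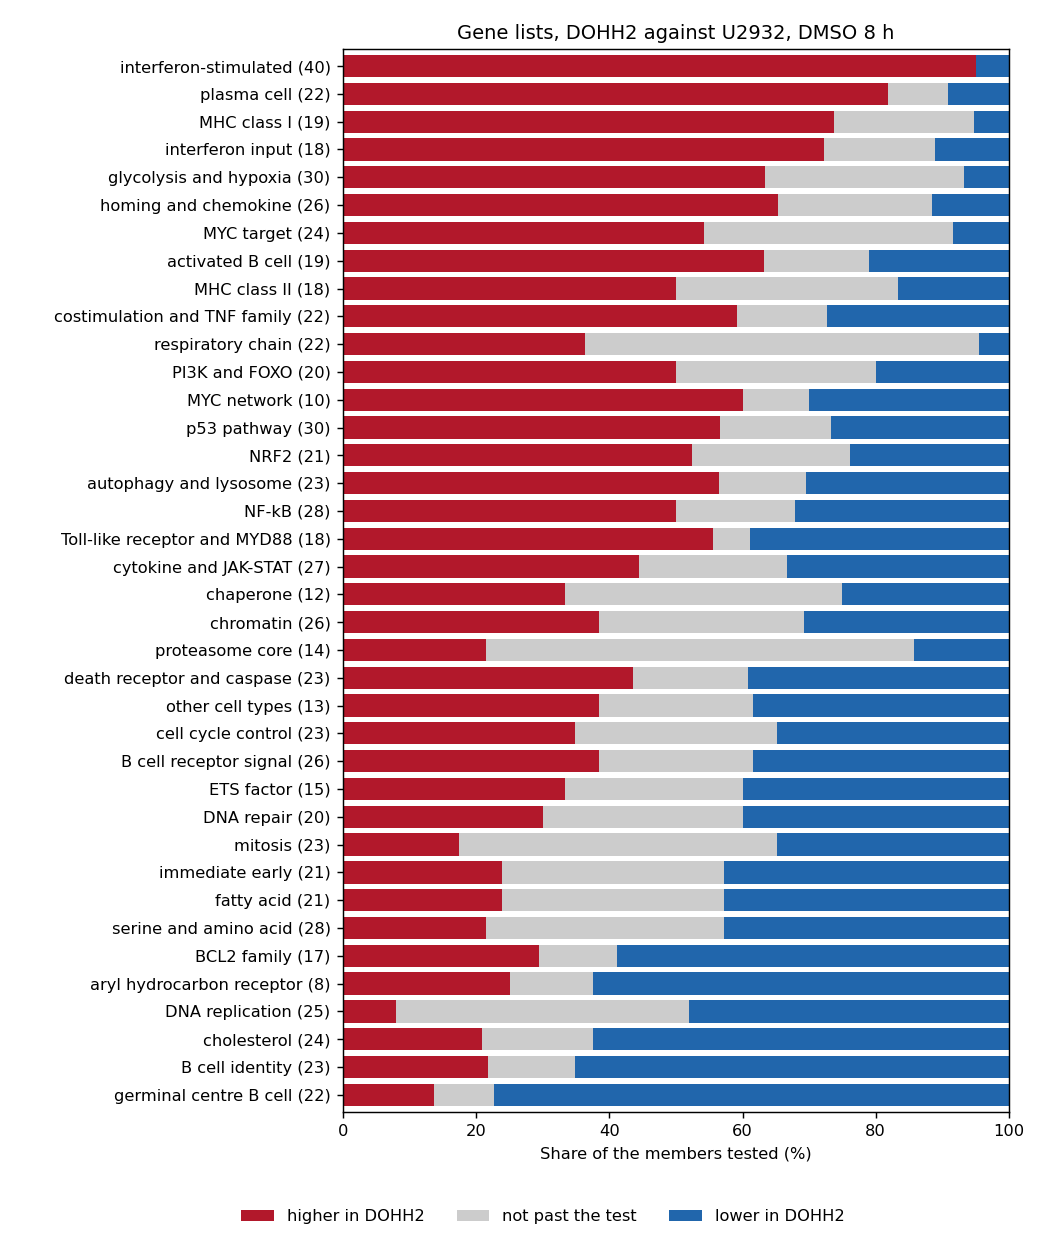
Share of the tested members of each gene list that were higher in DOHH2 (red, at the left), did not pass the test (grey) or were lower in DOHH2 (blue, at the right), with the number tested in brackets; lists with fewer than 8 tested members are left out. Interferon-stimulated genes stand at the top, with 38 of 40 higher, and germinal centre genes at the bottom, with 17 of 22 lower.

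The general B cell programme was present in both lines but weaker in DOHH2. Of 23 genes of B cell identity, 5 were higher and 15 lower in DOHH2, with a median log2 difference of -0.73. All 10 transcription factors of the list were lower in DOHH2. MS4A1, which encodes CD20, had 68.6, 112 and 99.5 CPM in the DOHH2 libraries, against 1112, 1507 and 1217 CPM in the U2932 libraries. The U2932 libraries were all far above the DOHH2 libraries, a 13.7-fold difference (log2 difference -3.78, SE 0.28, edgeR quasi-likelihood adjusted p = 2.26e-10). SPIB, an ETS factor of B cells, was lower as well, at 32.7 CPM in DOHH2 against 337 CPM in U2932. The early factor EBF1 was lower by less, at 20.1 CPM in DOHH2 against 31.6 CPM in U2932. Of the surface markers higher in DOHH2, CD24 was at 99.1 CPM in DOHH2 against 0.221 CPM in U2932 and the low-affinity IgE receptor FCER2 at 24.7 CPM in DOHH2 against 0.303 CPM in U2932. CD79A, a signalling chain of the B cell receptor, did not pass the test (log2 difference 0.19; adjusted p = 0.0242 by edgeR with a replicate block in the 6 libraries alone), whereas its partner chain CD79B was lower in DOHH2, at 149 CPM in DOHH2 against 496 CPM in U2932.

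Most genes of the germinal centre were lower in DOHH2, among them all 6 transcription factors of the list. Of 22 tested members, 3 were higher and 17 lower, with a median log2 difference of -2.04. BCL6, the repressor that maintains the germinal centre state, had 0.228, 0.0891 and 0 CPM in the DOHH2 libraries, against 409, 384 and 407 CPM in the U2932 libraries. DOHH2 was thus at the edge of detection, with 11 counts over its 3 libraries against 42154 in U2932. MYBL1, a MYB-family factor, had 0.781, 0.735 and 0.459 CPM in the DOHH2 libraries, against 84.2, 59.2 and 56.4 CPM in the U2932 libraries. LMO2, an adaptor of transcription complexes, had 0.195, 0.623 and 0.162 CPM in the DOHH2 libraries, against 15.3, 15.04 and 21.4 CPM in the U2932 libraries. MEF2B, an activator of BCL6, was at 2.11 CPM in DOHH2 against 57.9 CPM in U2932. These 4 factors shared one pattern, with no DOHH2 library near any U2932 library.

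The same held for TCL1A, a co-activator of AKT, with 0.293, 0.267 and 0 CPM in the DOHH2 libraries, against 349, 404 and 381 CPM in the U2932 libraries. RGS13, which dampens chemokine receptor signals, showed 0.0651, 0 and 0 CPM in the DOHH2 libraries, against 182, 178 and 167 CPM in the U2932 libraries. Neither gene reached 1 CPM in any DOHH2 library. ELL3, an elongation factor, was at 0.675 CPM in DOHH2 against 121 CPM in U2932, and SERPINA9, a serine protease inhibitor of germinal centre B cells, at 16.6 CPM in DOHH2 against 124 CPM in U2932. MME, which encodes CD10, was lower by less, with 21.2, 23.7 and 23.99 CPM in the DOHH2 libraries, against 53.9, 46.9 and 44.8 CPM in the U2932 libraries; the groups did not overlap (log2 difference -1.08, SE 0.21, edgeR quasi-likelihood adjusted p = 1.03e-04). Of the few members that were higher in DOHH2, GCSAM, an adaptor of germinal centre B cells, was 3.15-fold higher in DOHH2, at 163 ± 11.7 CPM in DOHH2 against 51.7 ± 2.84 CPM in U2932 (SD, n = 3 each). CD38, an ectoenzyme also carried by plasma cells, was at 267 CPM in DOHH2 against 139 CPM in U2932. P2RY8 was listed at 0 in every library; it lies in a region that the genome lists in 2 copies, so its reads may have been set aside as not unique.

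Genes of activated B cells were mostly higher in DOHH2. Of 19 members, 12 were higher and 4 lower, with a median log2 difference of 1.11. IRF4, a driver of the activated and plasma cell states, had 922, 833 and 857 CPM in the DOHH2 libraries, against 368, 418 and 420.1 CPM in the U2932 libraries. Every DOHH2 library was above every U2932 library, by 2.16-fold (log2 difference 1.11, SE 0.12, edgeR quasi-likelihood adjusted p = 6.19e-08). CCND2, a cyclin of G1, had 130.4, 123 and 123 CPM in the DOHH2 libraries, against 0.143, 0.266 and 0.0546 CPM in the U2932 libraries. It was close to silent in U2932, which gave 16 counts over 3 libraries. PRKCB, the kinase between the B cell receptor and NF-kB, was at 206 ± 21.99 CPM in DOHH2 against 12.4 ± 1.03 CPM in U2932 (SD, n = 3 each). The scaffold LIMD1 was at 133 CPM in DOHH2 against 7.51 CPM in U2932, the ectonucleotidase ENTPD1 at 122 CPM in DOHH2 against 8.37 CPM in U2932, and the egress receptor S1PR1 at 37.6 CPM in DOHH2 against 1.07 CPM in U2932. Of the 4 members that were lower in DOHH2, FOXP1, a forkhead repressor, had 5.08, 7.04 and 5.94 CPM in the DOHH2 libraries, against 51.4, 46.5 and 46.9 CPM in the U2932 libraries. PIM1, a survival kinase, was at 41.2 CPM in DOHH2 against 145 CPM in U2932, and CYB5R2, a reductase, at 0.616 CPM in DOHH2 against 30.9 CPM in U2932; the fourth was BMF, at 42.2 CPM in DOHH2 against 90.3 CPM in U2932. The groups of FOXP1, PIM1, CYB5R2 and BMF did not overlap.

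The plasma cell list was the most one-sided of the B cell lists toward DOHH2, with 18 of 22 members higher, 2 lower and a median log2 difference of 1.37. PRDM1, the repressor that ends the B cell programme, had 95.1, 77.7 and 70.5 CPM in the DOHH2 libraries, against 7.23, 7.58 and 6.96 CPM in the U2932 libraries. The groups were far apart (log2 difference 3.48, SE 0.18, edgeR quasi-likelihood adjusted p = 5.11e-13). SDC1, the heparan sulfate proteoglycan CD138 by which plasma cells are sorted, had 499, 466 and 495 CPM in the DOHH2 libraries, against 1.52, 1.72 and 1.86 CPM in the U2932 libraries. That is a 286-fold difference, with each group within a narrow range. XBP1, the factor of the secretory programme, did not pass the test, with 193, 219 and 249.5 CPM in the DOHH2 libraries, against 158, 215 and 219.8 CPM in the U2932 libraries and overlapping groups. The genes of secretion were higher nonetheless in 10 of 12 cases. JCHAIN, which joins antibody units into polymers, was at 1860.3 CPM in DOHH2 against 281 CPM in U2932. MZB1, a chaperone of antibody assembly, was at 276 CPM in DOHH2 against 31.3 CPM in U2932. HSP90B1, the chaperone of the endoplasmic reticulum, was at 1304 CPM in DOHH2 against 406 CPM in U2932. The lower members were TNFRSF17, the survival receptor BCMA, at 45.6 CPM in DOHH2 against 163 CPM in U2932, and SEC11C, a subunit of the signal peptidase, at 131 CPM in DOHH2 against 1794 CPM in U2932.

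**Figure D2:**
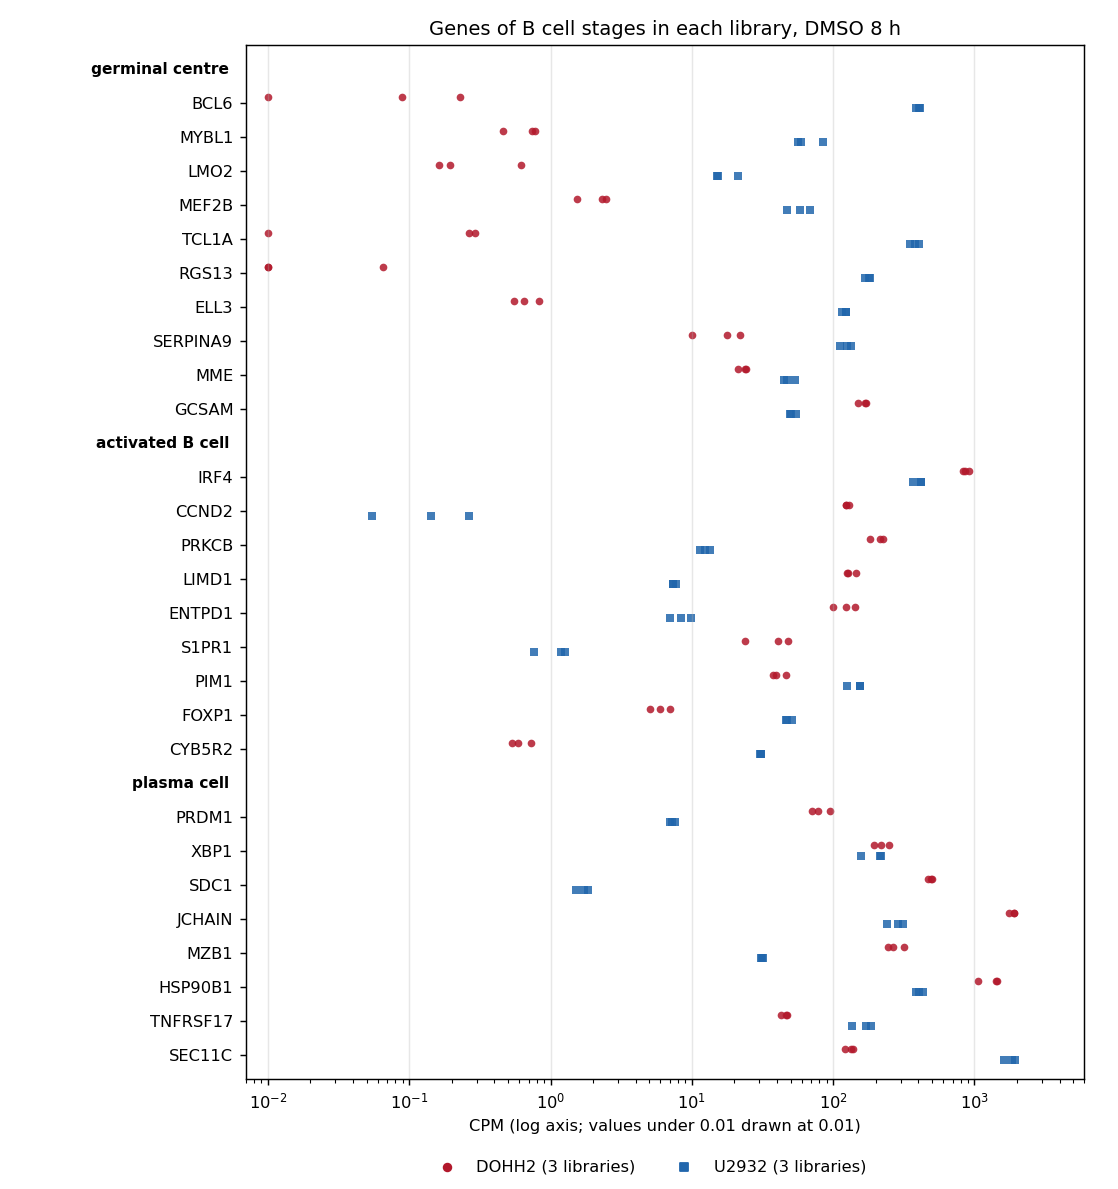
Level in CPM on a log axis of 27 genes of B cell stages in each of the 3 DOHH2 libraries (red circles, upper of each pair) and the 3 U2932 libraries (blue squares, lower). BCL6 lies at 384 to 409 CPM in U2932 and at or under 0.228 CPM in DOHH2, while SDC1 lies at 466 to 499 CPM in DOHH2 and at or under 1.86 CPM in U2932.

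The lines made different antibodies. DOHH2 RNA came from a lambda light chain and from IgG: IGLV2-11 supplied 99.5% of its lambda variable counts, IGLC3 99.98% of its lambda constant counts and IGHG4 92.2% of its heavy chain constant counts. U2932 RNA came from a kappa light chain and from IgM: IGKV3-20 supplied 98.4% of its kappa variable counts and IGHM 97.5% of its heavy chain constant counts. IGLC3 had 1710.3, 1989.5 and 2364 CPM in the DOHH2 libraries, against 1.98, 4.06 and 1.86 CPM in the U2932 libraries. IGKC, the kappa constant gene, had 0.814, 7.01 and 1.83 CPM in the DOHH2 libraries, against 1221, 1612 and 1566 CPM in the U2932 libraries. IGHG4 had 1334, 1156 and 1849 CPM in the DOHH2 libraries, against 0.459, 1.07 and 0.655 CPM in the U2932 libraries. In these 3 genes each line was high where the other was near 0, and the log2 difference of IGKC was -10.08 without the second DOHH2 library, against -8.77 with it. IGHM had 2.41, 2.05 and 0.459 CPM in the DOHH2 libraries, against 3429, 3670.1 and 1059.8 CPM in the U2932 libraries, and the third of the U2932 libraries stood well below the other 2. The IGHG genes are near-identical to one another and the variable genes of a line carry mutations, so the split of reads between neighbours is uncertain. Heavy chain variable genes summed to only 10.4 CPM in DOHH2 and 2.41 CPM in U2932 over 53 genes, far under the constant genes of the same chain.

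Interferon-stimulated genes gave the most one-sided difference of the lists with at least 8 tested members. These genes are switched on when interferon binds its receptor and a factor complex that holds STAT2 and IRF9 reaches a short element in their promoters, and their products block viral replication. All 40 members passed the filter, 38 were higher in DOHH2 and 2 lower, and the median log2 difference was 3.45. The element is represented by 2 runs of GAAA with any 2 bases between them, sought on both strands in the RefSeq promoter windows of GRCh38.p14, which run from 250 bases before to 50 bases after the annotated start. A match lay in 20 of the 30 members with a promoter in the table (66.7%), and in 993 of all 27195 promoters (3.65%). Among the 29 members higher in DOHH2 with a promoter, 19 held one (65.5%). A match is a run of letters and does not show that a factor binds there. The windows of 3 strongly differing members and of PLSCR1, one of the 2 members lower in DOHH2, are shown because they place the element beside the measured difference. The 3 were picked among members with a match. XAF1, at a log2 difference of 9.88, had 0 matches. Capitals mark each match on either strand.
IFIT3: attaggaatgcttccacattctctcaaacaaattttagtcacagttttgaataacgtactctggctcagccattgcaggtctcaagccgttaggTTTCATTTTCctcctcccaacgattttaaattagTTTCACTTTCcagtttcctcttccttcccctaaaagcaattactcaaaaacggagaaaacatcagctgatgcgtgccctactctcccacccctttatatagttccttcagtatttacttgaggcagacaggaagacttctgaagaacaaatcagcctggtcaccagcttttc
IFI44L: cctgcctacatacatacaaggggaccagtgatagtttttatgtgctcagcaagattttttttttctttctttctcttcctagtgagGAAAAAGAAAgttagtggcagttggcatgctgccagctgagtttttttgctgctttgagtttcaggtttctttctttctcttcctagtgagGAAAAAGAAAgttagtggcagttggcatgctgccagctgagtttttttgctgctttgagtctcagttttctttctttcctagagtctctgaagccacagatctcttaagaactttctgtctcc
MX1: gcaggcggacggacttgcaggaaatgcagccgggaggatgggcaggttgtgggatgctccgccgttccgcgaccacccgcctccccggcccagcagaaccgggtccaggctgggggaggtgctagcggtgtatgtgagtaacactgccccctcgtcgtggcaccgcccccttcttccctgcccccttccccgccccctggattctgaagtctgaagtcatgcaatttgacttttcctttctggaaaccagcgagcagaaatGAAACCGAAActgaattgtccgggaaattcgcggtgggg
PLSCR1: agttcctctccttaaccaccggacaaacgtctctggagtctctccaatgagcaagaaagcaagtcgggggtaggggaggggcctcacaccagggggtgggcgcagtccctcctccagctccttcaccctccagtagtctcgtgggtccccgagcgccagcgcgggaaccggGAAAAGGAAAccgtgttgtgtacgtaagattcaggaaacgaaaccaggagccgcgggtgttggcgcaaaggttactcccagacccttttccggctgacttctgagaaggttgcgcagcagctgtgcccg

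The IFIT3 window is chr10:89327747-89328046 on the plus strand, with 2 matches that begin 156 and 122 bases before the start. The IFI44L window is chr1:78620198-78620497 on the plus strand, with 2 matches 164 and 73 bases before the start. In MX1, at chr21:41420308-41420607 on the plus strand, the match begins 11 bases after the start. PLSCR1, at chr3:146544558-146544857 on the minus strand, holds 1 match 79 bases before the start although the gene was lower in DOHH2. PLSCR1 was the only lower member with a promoter sequence, so the windows cannot show whether matches follow the direction of the difference.

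Among the antiviral effectors, IFIT3, which binds viral RNA together with its family members, had 342, 329 and 265 CPM in the DOHH2 libraries, against 0.201, 0.118 and 0.355 CPM in the U2932 libraries. MX1, a GTPase that traps viral nucleoproteins, had 152, 198 and 164 CPM in the DOHH2 libraries, against 0.402, 0.355 and 0.519 CPM in the U2932 libraries. IFI44L, a member of the IFI44 family, had 78.9, 98.00 and 75.3 CPM in the DOHH2 libraries, against 0.0574, 0.148 and 0.109 CPM in the U2932 libraries. In all 3 the U2932 libraries stayed under 1 CPM and no library lay between the lines. LY6E, a membrane protein that limits viral entry, was at 189 CPM in DOHH2 against 0.0938 CPM in U2932. XAF1, a pro-apoptotic partner of XIAP, was at 12.1 CPM in DOHH2 against 0.00987 CPM in U2932, with 1 count in all of U2932. The restriction factor IFITM1 was at 154 CPM in DOHH2 against 3.05 CPM in U2932, OAS2, which makes the activator of RNase L, at 185 CPM in DOHH2 against 8.32 CPM in U2932, and the tethering factor BST2 at 277 CPM in DOHH2 against 34.7 CPM in U2932. The exceptions were PLSCR1, a phospholipid scramblase, at 11.4 CPM in DOHH2 against 25.4 CPM in U2932, and MX2, the paralogue of MX1 that acts at the nuclear pore, at 34.9 CPM in DOHH2 against 67.1 CPM in U2932. MX2 had 34.8, 40.5 and 29.5 CPM in the DOHH2 libraries, against 60.6, 68.98 and 71.6 CPM in the U2932 libraries, without overlap (log2 difference -0.94, SE 0.15, edgeR quasi-likelihood adjusted p = 1.20e-05).

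**Figure D3:**
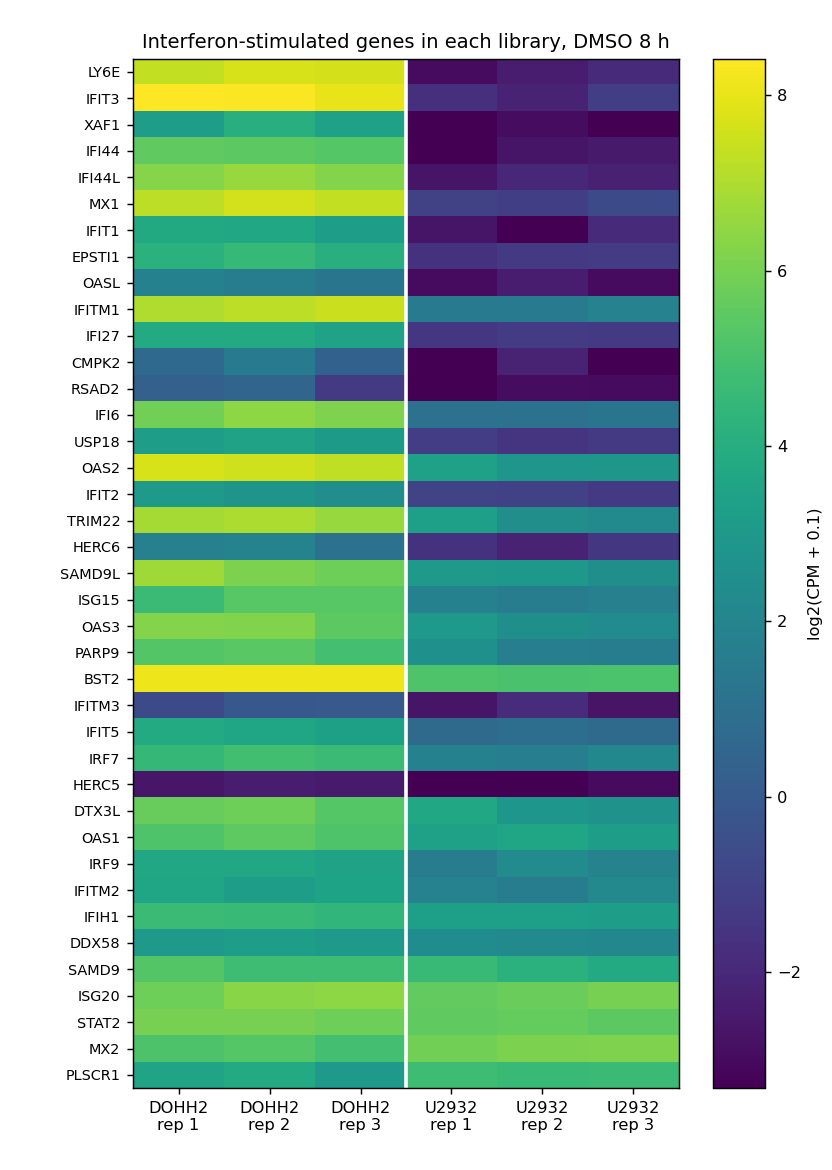
Level of 39 of the 40 interferon-stimulated genes (rows, ordered by their difference) in the 3 DOHH2 and 3 U2932 libraries (columns), coloured by log2(CPM + 0.1). All rows but the last 2, MX2 and PLSCR1, are brighter in DOHH2, and the replicates of a line look alike.

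The inputs of this response differed in the same direction but by less. Of 18 tested receptors, kinases, sensors and factors, 13 were higher and 2 lower in DOHH2, with a median log2 difference of 0.90. All 4 receptor chains were higher. IFNAR2, the binding chain of the type I receptor, had 74.9, 81.3 and 74.6 CPM in the DOHH2 libraries, against 13.2, 12.6 and 11.3 CPM in the U2932 libraries. IFNAR1, its partner, was at 64.9 CPM in DOHH2 against 35.6 CPM in U2932. Both were without overlap. The kinase JAK1 did not pass the test, at 148 CPM in DOHH2 against 169 CPM in U2932. Among the sensors, TLR7, the endosomal receptor for single-stranded RNA, had 32.8, 32.2 and 26.4 CPM in the DOHH2 libraries, against 2.81, 1.86 and 2.16 CPM in the U2932 libraries. TMEM173, which encodes the DNA sensing adaptor STING, was at 4.19 CPM in DOHH2 against 0.0551 CPM in U2932. Among the factors counted with the stimulated genes, IRF7 was at 25.9 CPM in DOHH2 against 3.68 CPM in U2932, and IRF9, the DNA-binding partner of STAT2, at 12.2 CPM in DOHH2 against 3.95 CPM in U2932. STAT2 itself was at 61.6 CPM in DOHH2 against 46.95 CPM in U2932. The interferons themselves did not pass the filter: over the 3 libraries of each line IFNB1 had 1 count in DOHH2 and 3 counts in U2932, IFNG had 0 counts in DOHH2 and 7 counts in U2932, and IFNL1 had none. CXCL9, a chemokine induced by interferon gamma, was at 133 CPM in DOHH2 against 0.0483 CPM in U2932. Its first DOHH2 library was the highest, as it was for the class II genes below.

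The DR and DQ genes of MHC class II, which present peptides to CD4 T cells, were almost absent from U2932, whereas the DP genes were present in both lines. Of the 18 members of the list, 9 were higher and 3 lower in DOHH2 (median log2 difference 0.62), and of the 7 classical chains 6 were higher. HLA-DRA, the invariant DR chain, had 233, 31.6 and 41.3 CPM in the DOHH2 libraries, against 0.775, 1.39 and 0.983 CPM in the U2932 libraries. The first DOHH2 library stood far above the other 2, yet each of them was above every U2932 library. HLA-DQB1 had 306, 186 and 187 CPM in the DOHH2 libraries, against 0, 0.118 and 0 CPM in the U2932 libraries. HLA-DRB1 had 306, 158 and 160.3 CPM in the DOHH2 libraries, against 0.0287, 0.266 and 0.137 CPM in the U2932 libraries. HLA-DPA1, by contrast, was present in both lines, at 255 CPM in DOHH2 against 159 CPM in U2932. These 4 genes were all highest in the first DOHH2 library.

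The transactivator CIITA, which class II genes need, was at 144 CPM in DOHH2 against 87.8 CPM in U2932 (log2 difference 0.71, SE 0.19, edgeR quasi-likelihood adjusted p = 0.00251), a difference much smaller than that of the DR and DQ chains. CD74, the invariant chain, was at 2644 CPM in DOHH2 against 1431 CPM in U2932. HLA genes vary between people and are close copies of one another, so reads of an allele far from the reference genome may be lost or misplaced, and the levels of single HLA genes are uncertain. HLA-DRA also varied among the other DOHH2 libraries of the series. It was at 3.06 CPM in the second library with TK at 18 h and 300 CPM in the first with TK at 8 h. The highest U2932 library of the series was at 1.53 CPM. Without the first DOHH2 library in DMSO at 8 h the log2 difference of HLA-DRA was 5.12, against 6.60 with it, and it still passed. HLA-DPA1 and CD74 no longer passed without that library, at log2 differences of 0.29 (edgeR quasi-likelihood adjusted p = 0.327) and 0.49 (edgeR quasi-likelihood adjusted p = 0.190). Without single U2932 libraries edgeR's adjusted p of HLA-DPA1 lay between 0.0627 and 0.0740, and that of CD74 was 0.0795 without the first and 0.0528 without the second. With the replicate number as a block in the 6 libraries alone, edgeR's adjusted p was 0.0547 for HLA-DPA1 and 0.0705 for CD74. With DESeq2 the adjusted p of CD74 was 0.0610.

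The class I pathway, which presents peptides to CD8 T cells, was higher in DOHH2 in 14 of 19 members, with 1 lower and a median log2 difference of 1.56. All 5 genes of the immunoproteasome were higher, for example PSMB9, a catalytic subunit, at 52.03 CPM in DOHH2 against 10.7 CPM in U2932. TAP1, a subunit of the peptide transporter, had 214, 196 and 173 CPM in the DOHH2 libraries, against 43.6, 43.6 and 45.5 CPM in the U2932 libraries. NLRC5, the class I transactivator, had 124, 164 and 131 CPM in the DOHH2 libraries, against 20.6, 14.00 and 14.1 CPM in the U2932 libraries. Both genes separated the lines fully. HLA-C was at 83.95 CPM in DOHH2 against 14.1 CPM in U2932. HLA-B had 20.01, 5.34 and 6.64 CPM in the DOHH2 libraries, against 0.172, 0.0888 and 0.273 CPM in the U2932 libraries. The first DOHH2 library was the highest, and without it the log2 difference of HLA-B was 5.03, against 5.85 with it. The levels of these HLA genes are subject to the same doubt about alleles. B2M, the shared light chain of class I molecules, had 423, 380.2 and 1366 CPM in the DOHH2 libraries, against 621, 644 and 605 CPM in the U2932 libraries. Only the third DOHH2 library was high, and B2M did not pass the test. Its log2 difference was 0.21 with all libraries and -0.63 without the third DOHH2 library (edgeR quasi-likelihood adjusted p = 0.336).

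Receptors that guide B cells through lymphoid tissue differed by far more than most genes. Of 26 tested members, 17 were higher and 3 lower in DOHH2, with a median log2 difference of 1.81. CXCR5, which draws B cells into follicles, had 0.130, 0.356 and 0 CPM in the DOHH2 libraries, against 74.5, 94.3 and 92.04 CPM in the U2932 libraries. GPR183, the oxysterol receptor that draws activated B cells to the follicle edge, had 422, 316 and 291 CPM in the DOHH2 libraries, against 5.88, 6.42 and 6.85 CPM in the U2932 libraries. CCR7, which draws them to the T cell zone, had 138, 95.02 and 66.1 CPM in the DOHH2 libraries, against 4.99, 5.71 and 6.36 CPM in the U2932 libraries. The follicular receptor was thus the one near 0 in DOHH2, and the other 2 were the ones low in U2932. Of the receptors for lysophospholipids, S1PR4 was at 45.6 CPM in DOHH2 against 0.0387 CPM in U2932 and P2RY10 at 64.4 CPM in DOHH2 against 0.333 CPM in U2932. KLF2, the factor that drives S1PR1, was at 10.2 CPM in DOHH2 against 0.0651 CPM in U2932.

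Among the adhesion molecules the integrins went opposite ways. ITGA4, the alpha chain of VLA-4, had 168, 226 and 218 CPM in the DOHH2 libraries, against 19.9, 12.3 and 9.15 CPM in the U2932 libraries. ITGAL, the alpha chain of LFA-1, had 5.66, 9.26 and 8.39 CPM in the DOHH2 libraries, against 136, 130.2 and 119 CPM in the U2932 libraries. No library of one line reached the other in either gene. ICAM1, the ligand of LFA-1, was higher in DOHH2, at 222 CPM in DOHH2 against 75.7 CPM in U2932, and SELPLG, the P-selectin ligand, was at 35.5 CPM in DOHH2 against 0.591 CPM in U2932. For the costimulatory and TNF family, 13 of 22 members were higher and 6 lower. CD70, the ligand of CD27, was at 165 CPM in DOHH2 against 19.5 CPM in U2932. The receptor TNFRSF8, known as CD30, had 63.7, 52.2 and 63.9 CPM in the DOHH2 libraries, against 0.229, 0.474 and 0.355 CPM in the U2932 libraries, while its ligand TNFSF8 had 0, 0.0223 and 0 CPM in the DOHH2 libraries, against 12.6, 17.9 and 17.1 CPM in the U2932 libraries. Receptor and ligand were thus each high in the line where the other was near 0. LGALS9, a galectin that binds the inhibitory receptor TIM-3, was at 57.1 CPM in DOHH2 against 0.1248 CPM in U2932, and the costimulator CD86 was lower in DOHH2, at 12.5 CPM in DOHH2 against 44.6 CPM in U2932.

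Cytokine receptors and their signal chains were split, with 12 of 27 members higher and 9 lower. IL7R, a receptor of early lymphocytes, had 36.1, 33.9 and 25.04 CPM in the DOHH2 libraries, against 0, 0.0592 and 0.0273 CPM in the U2932 libraries. IL4R, whose ligand acts on germinal centre B cells, had 17.1, 23.4 and 20.2 CPM in the DOHH2 libraries, against 198, 257 and 294 CPM in the U2932 libraries. IL10RA, the binding chain of the IL-10 receptor, was at 20.2 CPM in DOHH2 against 159.8 CPM in U2932. The IL-7 receptor was confined to DOHH2 in these 6 libraries, and the IL-4 and IL-10 receptors were lower there. JAK3, the kinase of the common gamma chain, had 0.0325, 0.111 and 0.0270 CPM in the DOHH2 libraries, against 30.04, 24.7 and 30.7 CPM in the U2932 libraries, although the gamma chain IL2RG itself was at 93.5 CPM in DOHH2 against 17.6 CPM in U2932. STAT5A was at 84.4 CPM in DOHH2 against 4.84 CPM in U2932 and SOCS2, one of its known targets and a feedback inhibitor, at 138 CPM in DOHH2 against 0.0578 CPM in U2932. STAT3 did not pass the test, at 81.8 CPM in DOHH2 against 85.8 CPM in U2932.

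In B cell receptor signalling, the counts in both directions were equal, with 10 of 26 members higher and 10 lower. BTK, the kinase after the receptor, had 189, 177 and 169 CPM in the DOHH2 libraries, against 87.9, 83.6 and 73.96 CPM in the U2932 libraries. PLCG2, the phospholipase it activates, had 208, 224 and 196 CPM in the DOHH2 libraries, against 511, 541 and 494 CPM in the U2932 libraries. Each separated the lines, in opposite directions, by 2.18-fold upward and 2.46-fold downward in DOHH2. SYK, the first kinase of the pathway, did not pass, at 193 CPM in DOHH2 against 206 CPM in U2932. RASGRP2, an activator of RAP1, was at 64.2 CPM in DOHH2 against 0.593 CPM in U2932, and RASGRP3, a relative, at 42.2 CPM in DOHH2 against 275 CPM in U2932. BANK1, a scaffold, was at 0.0223 CPM in DOHH2 against 13.3 CPM in U2932, and the SRC-family kinase FYN at 0.274 CPM in DOHH2 against 15.4 CPM in U2932. The inhibitory Fc receptor FCGR2B had 67.2, 77.99 and 62.4 CPM in the DOHH2 libraries, against 3.39, 3.32 and 1.61 CPM in the U2932 libraries, with the lines far apart.

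NF-kB genes were likewise split, 14 higher and 9 lower of 28. MALT1, a protease that acts between the B cell receptor and NF-kB, was lower in DOHH2, at 107 CPM in DOHH2 against 186 CPM in U2932. The inhibitors TNFAIP3 and NFKBIA, which NF-kB itself induces, were higher. TNFAIP3 had 170.2, 175 and 107 CPM in the DOHH2 libraries, against 29.8, 34.4 and 35.3 CPM in the U2932 libraries. NFKBIA was at 144 CPM in DOHH2 against 33.6 CPM in U2932. Targets ran both ways: CCL22, a chemokine, was at 81.1 CPM in DOHH2 against 6.97 CPM in U2932, whereas BIRC3, an inhibitor of apoptosis, had 17.3, 12.4 and 9.61 CPM in the DOHH2 libraries, against 192, 164 and 167 CPM in the U2932 libraries. The lymphotoxin beta gene LTB was at 0.362 CPM in DOHH2 against 10.4 CPM in U2932 and the cytokine gene TNF at 0.0879 CPM in DOHH2 against 11.8 CPM in U2932. Of the Toll-like receptor list, 10 of 18 members were higher and 7 lower. CD180, a TLR4 relative of B cells, had 65.3, 75.5 and 63.7 CPM in the DOHH2 libraries, against 0.373, 0.266 and 0.218 CPM in the U2932 libraries. TLR10 had 2.96, 4.07 and 2.94 CPM in the DOHH2 libraries, against 48.3, 62.6 and 48.8 CPM in the U2932 libraries, and IRAK3, an inhibitor of the pathway, 0.618, 1.02 and 0.432 CPM in the DOHH2 libraries, against 31.3, 35.5 and 34.8 CPM in the U2932 libraries. MYD88, the shared adaptor, was 1.86-fold higher in DOHH2.

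The BCL2 family, which sets the threshold for mitochondrial cell death, was lower in DOHH2 in 10 of 17 members and higher in 5, with a median log2 difference of -1.16. Of the 6 pro-survival genes 5 were lower. BCL2 had 128, 206 and 164 CPM in the DOHH2 libraries, against 897, 972 and 913 CPM in the U2932 libraries. MCL1 had 249, 253 and 234 CPM in the DOHH2 libraries, against 2401, 2807 and 2554 CPM in the U2932 libraries. The U2932 libraries exceeded all DOHH2 libraries by 5.58-fold for BCL2 (log2 difference -2.48, SE 0.20, edgeR quasi-likelihood adjusted p = 5.99e-10). For MCL1 the difference was 10.5-fold (log2 difference -3.40, SE 0.14, edgeR quasi-likelihood adjusted p = 1.73e-14). BCL2A1 was at 27.3 CPM in DOHH2 against 150.0 CPM in U2932, and BCL2L1, which encodes BCL-xL, at 55.3 CPM in DOHH2 against 124 CPM in U2932. BCL2L2, which encodes BCL-w, was the exception, with 27.5, 26.8 and 27.7 CPM in the DOHH2 libraries, against 4.48, 3.88 and 3.85 CPM in the U2932 libraries. Per kilobase of exon, MCL1 stood highest of these 5 genes in both lines, at 56.2 CPM per kb in DOHH2 and 592 in U2932. BCL2A1 came next, at 25.1 CPM per kb in DOHH2 and 138 in U2932. BCL2L1 and BCL2 followed in DOHH2 within their spread, at 16.7 and 14.1 CPM per kb, whereas in U2932 BCL2 lay above BCL2L1, at 78.8 and 37.3 CPM per kb. BCL2L2 was last in both, at 6.52 CPM per kb in DOHH2 and 0.971 in U2932.

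Genes that promote death were not uniformly higher in DOHH2. Of the effectors, BAX was at 161 CPM in DOHH2 against 70.5 CPM in U2932 and BAK1 at 62.7 CPM in DOHH2 against 46.5 CPM in U2932, both past the test. Of the 8 BH3-only genes, whose products start the process, 5 were lower. PMAIP1, which encodes the MCL1 antagonist NOXA, had 159, 139 and 117 CPM in the DOHH2 libraries, against 991, 984 and 902 CPM in the U2932 libraries. BCL2L11, which encodes BIM, had 24.3, 33.8 and 32.1 CPM in the DOHH2 libraries, against 133, 146 and 149.8 CPM in the U2932 libraries. BIK had 0.0651, 0.178 and 0.162 CPM in the DOHH2 libraries, against 80.9, 77.4 and 87.1 CPM in the U2932 libraries. In all 3 the DOHH2 libraries lay together below the U2932 libraries. HRK was at 0.0474 CPM in DOHH2 against 13.2 CPM in U2932. BBC3, the p53 target PUMA, did not pass the test, at 15.9 CPM in DOHH2 against 12.1 CPM in U2932 (log2 difference 0.39, SE 0.22, edgeR quasi-likelihood adjusted p = 0.121), but did without the third U2932 library (0.0444), in the 6 libraries alone (0.0335) and there with a replicate block (0.0159). In the list of death receptors and caspases, 10 of 23 members were higher and 9 lower. The TNF receptor TNFRSF1B was at 235 CPM in DOHH2 against 9.30 CPM in U2932, and the inflammatory caspase CASP1 had 136, 179.6 and 165 CPM in the DOHH2 libraries, against 3.79, 4.35 and 4.12 CPM in the U2932 libraries. RIPK3, a kinase of necroptosis, was lower in DOHH2, at 1.05 CPM in DOHH2 against 9.20 CPM in U2932.

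**Figure D4:**
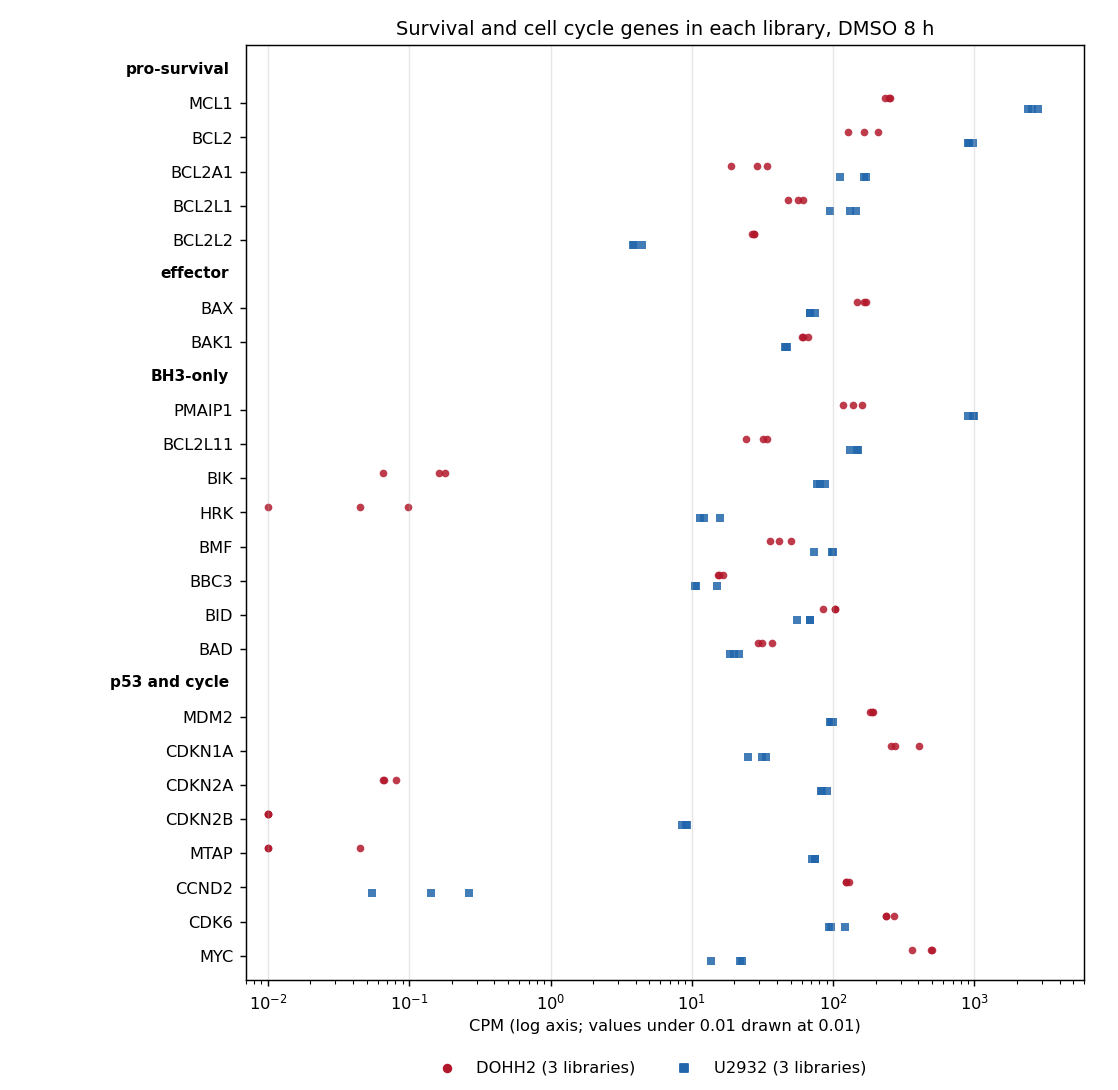
Level in CPM on a log axis of 23 survival, p53 and cell cycle genes in each of the 3 DOHH2 libraries (red circles, upper of each pair) and the 3 U2932 libraries (blue squares, lower). MCL1 lies at 234 to 253 CPM in DOHH2 and 2401 to 2807 CPM in U2932; CDKN2A, CDKN2B and MTAP lie under 0.1 CPM in every DOHH2 library.

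Many genes of the p53 pathway were higher in DOHH2. Of 30 genes of the pathway, 17 were higher in DOHH2 and 8 lower, with a median log2 difference of 0.54. CDKN1A, the p21 inhibitor of cyclin-dependent kinases, had 402, 276 and 256 CPM in the DOHH2 libraries, against 25.1, 31.4 and 33.3 CPM in the U2932 libraries. MDM2, the ligase that removes p53, had 191, 181 and 189 CPM in the DOHH2 libraries, against 99.00, 94.7 and 96.1 CPM in the U2932 libraries. The DOHH2 libraries were above the U2932 libraries in both genes, by 10.4-fold and 1.94-fold. Of the 9 death targets 8 were higher, among them the receptor EDA2R, at 12.3 CPM in DOHH2 against 0 CPM in U2932, and PHLDA3, an inhibitor of AKT, at 5.36 CPM in DOHH2 against 0.0376 CPM in U2932. With a floor of 3 counts per U2932 library, EDA2R was at least 144-fold higher in DOHH2. RRM2B, a ribonucleotide reductase subunit induced by p53, went the other way, at 18.9 CPM in DOHH2 against 122 CPM in U2932.

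In cell cycle control the inhibitors of the INK4 locus were missing from DOHH2. CDKN2A, which encodes p16 and p14ARF, had 0.0651, 0.0668 and 0.0810 CPM in the DOHH2 libraries, against 83.8, 82.4 and 90.3 CPM in the U2932 libraries. CDKN2B, which encodes p15, had no count in the 3 DOHH2 libraries, against 9.21, 9.06 and 8.58 CPM in the U2932 libraries. MTAP, the neighbouring methylthioadenosine phosphorylase, had 0, 0.0445 and 0 CPM in the DOHH2 libraries, against 74.5, 74.9 and 71.4 CPM in the U2932 libraries. U2932 expressed all 3 genes in every library, and DOHH2 gave 8, 0 and 2 counts over its 3 libraries. With the floor of 3 counts per library, CDKN2B was at least 109-fold lower in DOHH2. CDK6, a kinase that these inhibitors block, was at 248 CPM in DOHH2 against 104 CPM in U2932. CCND1 was low in both lines, at 0.175 CPM in DOHH2 against 2.67 CPM in U2932, and CCND3 did not pass, at 47.98 CPM in DOHH2 against 58.9 CPM in U2932. The adjusted p of CCND3 by edgeR was 0.119 with all libraries, 0.0322 without the first DOHH2 library and 0.0232 with a replicate block in the 6 libraries alone. CCND2 was thus the D cyclin that set the lines apart most. RB1, the gatekeeper of S phase, was at 74.2 CPM in DOHH2 against 37.9 CPM in U2932. Over the whole list, 8 of 23 members were higher and 8 lower. The share past the test, 69.6%, was close to the 67.8% of all genes.

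Genes of mitosis and replication differed less often, with 52.2% and 56% of the members past the test against 67.8% of all genes. Of 23 mitotic genes, 4 were higher and 8 lower, and 11 did not pass. The number higher was 2 without the first DOHH2, the second U2932 or the third U2932 library, and the number lower was 4 without the first U2932 library. BUB1, a checkpoint kinase, was at 149 CPM in DOHH2 against 47.9 CPM in U2932, and the proliferation marker MKI67 at 314 CPM in DOHH2 against 202 CPM in U2932, while PTTG1, the securin, was at 67.9 CPM in DOHH2 against 168 CPM in U2932. MKI67 no longer passed without the first DOHH2 library (edgeR adjusted p = 0.0675), the second U2932 library (0.104) or the third (0.0729). Of 25 replication genes, 2 were higher and 12 lower, with a median log2 difference of -0.36. RFC4, a subunit of the clamp loader, was at 54.2 CPM in DOHH2 against 189 CPM in U2932, and GMNN, the inhibitor of relicensing, at 51.99 CPM in DOHH2 against 141 CPM in U2932; MCM7, of the replicative helicase, was higher, at 909 CPM in DOHH2 against 593 CPM in U2932. Without the second DOHH2 library 5 replication genes were higher and 6 lower. Among 20 repair genes, 6 were higher and 8 lower, and the share past the test, 70%, was close to that of all genes. MGMT, which removes alkyl groups from guanine, had 29.8, 23.4 and 25.3 CPM in the DOHH2 libraries, against 0.459, 0.207 and 0.410 CPM in the U2932 libraries. ATM, the kinase of double-strand breaks, was at 70.6 CPM in DOHH2 against 196 CPM in U2932, and the mismatch repair gene MSH6 at 168 CPM in DOHH2 against 314 CPM in U2932. MGMT was nearly silent in U2932, and the other repair genes named were present in both lines.

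MYC, the factor that drives growth and ribosome production, was far higher in DOHH2, with 362, 494 and 504 CPM in the DOHH2 libraries, against 13.6, 22.1 and 22.6 CPM in the U2932 libraries. The DOHH2 libraries lay 23.4-fold above the U2932 libraries, without overlap (log2 difference 4.55, SE 0.20, edgeR quasi-likelihood adjusted p = 5.75e-14). Its antagonists were mixed, with MXI1 at 18.1 CPM in DOHH2 against 5.73 CPM in U2932 and MXD1 at 5.68 CPM in DOHH2 against 24.7 CPM in U2932. Its partner MAX did not pass, at 86.03 CPM in DOHH2 against 74.98 CPM in U2932, other than with a replicate block in the 6 libraries alone (edgeR adjusted p = 0.0275). Of 24 reported targets, 13 were higher and 2 lower, with a median log2 difference of 0.30. NCL, nucleolin, had 1732, 1766 and 1941 CPM in the DOHH2 libraries, against 645, 697 and 708 CPM in the U2932 libraries. SRM, spermidine synthase, was at 499 CPM in DOHH2 against 201 CPM in U2932, RRP9, a factor of ribosomal RNA processing, at 134 CPM in DOHH2 against 42.3 CPM in U2932, and TERT, the telomerase subunit, at 43.6 CPM in DOHH2 against 5.81 CPM in U2932. Both lower members were CAD, of pyrimidine synthesis, at 156 CPM in DOHH2 against 293 CPM in U2932, and TFRC, the transferrin receptor, at 374 CPM in DOHH2 against 854 CPM in U2932. The targets named here thus differed by far less than MYC itself.

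Sugar and sterol metabolism went in opposite directions. In the list of glycolysis and hypoxia, 19 of 30 members were higher in DOHH2 and 2 lower, with a median log2 difference of 0.57. HK2, a hexokinase that takes the first step, had 148, 176 and 164 CPM in the DOHH2 libraries, against 46.6, 42.2 and 41.9 CPM in the U2932 libraries. PFKL, a phosphofructokinase subunit, had 211, 214 and 226 CPM in the DOHH2 libraries, against 54.9, 50.7 and 55.3 CPM in the U2932 libraries. The lactate exporter SLC16A3 was at 74.7 CPM in DOHH2 against 14.5 CPM in U2932. None of these overlapped. Both lower members were PKM, pyruvate kinase, at 2190.0 CPM in DOHH2 against 3236 CPM in U2932, and ADM, a peptide hormone induced by hypoxia, at 2.97 CPM in DOHH2 against 69.9 CPM in U2932.

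In the cholesterol list, 15 of 24 members were lower and 5 higher, with a median of -0.71. Of 17 enzymes of synthesis, 13 were lower. SC5D, a late sterol desaturase, had 7.94, 12.1 and 11.7 CPM in the DOHH2 libraries, against 198, 213 and 173 CPM in the U2932 libraries. IDI1, an isomerase of isoprenoid units, had 52.7, 62.5 and 69.8 CPM in the DOHH2 libraries, against 279.9, 292 and 289 CPM in the U2932 libraries. The groups of both genes were apart. FDFT1, squalene synthase, was at 154 CPM in DOHH2 against 413 CPM in U2932. SREBF2, the factor that controls the pathway, was at 282 CPM in DOHH2 against 394 CPM in U2932 (log2 difference -0.48, SE 0.18, edgeR quasi-likelihood adjusted p = 0.0209), and this call was lost without the first DOHH2 library, at a log2 difference of -0.29, or without the second or the third U2932 library, at -0.46 and -0.43. The sterol exporter ABCG1 was higher in DOHH2, at 5.16 CPM in DOHH2 against 0.0187 CPM in U2932.

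Of 10 genes of fatty acid oxidation and storage, 5 were lower and 3 higher in DOHH2, and the lower ones named here differed widely. CPT1A, the gate of mitochondrial oxidation, had 0.358, 0.779 and 0.324 CPM in the DOHH2 libraries, against 61.6, 58.4 and 52.9 CPM in the U2932 libraries. ACADM, the medium-chain dehydrogenase, had 83.1, 67.2 and 60.7 CPM in the DOHH2 libraries, against 483, 549 and 535 CPM in the U2932 libraries. PLIN2, a coat protein of lipid droplets, was at 2.80 CPM in DOHH2 against 44.7 CPM in U2932. DOHH2 was low in every library for each of the 3. FASN, the synthase, was higher in DOHH2, at 822 CPM in DOHH2 against 454 CPM in U2932. ME1, the malic enzyme that supplies NADPH, had no count in the 3 DOHH2 libraries, against 36.1, 47.1 and 39.7 CPM in the U2932 libraries and was at least 501-fold lower. In the serine and amino acid list, 12 of 28 members were lower and 6 higher, with 64.3% past the test against 67.8% of all genes. PSAT1, a transaminase of serine synthesis, was at 12.9 CPM in DOHH2 against 118 CPM in U2932. CPS1, the first enzyme of the urea cycle, had 33.97, 22.9 and 19.4 CPM in the DOHH2 libraries, against no count in the 3 U2932 libraries, at least 297-fold higher. AHR, the aryl hydrocarbon receptor, had 0.0651, 0.534 and 0.0810 CPM in the DOHH2 libraries, against 13.6, 10.7 and 10.9 CPM in the U2932 libraries, and of its list 5 of 8 members were lower. NQO1, a quinone reductase of the NRF2 response, was at 31.3 CPM in DOHH2 against 4.27 CPM in U2932, and the ferritin chains split, with FTH1 at 796 CPM in DOHH2 against 135 CPM in U2932 and FTL at 591 CPM in DOHH2 against 1374 CPM in U2932.

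The proteasome core and respiratory chain lists had fewer calls, at 35.7% and 40.9% of their members against 67.8% of all genes. Of 14 core subunits of the proteasome, 3 were higher, 2 lower and 9 did not pass; without the second U2932 library 1 was lower. Of 22 genes of the respiratory chain, 8 were higher and 1 lower, the number lower being 2 without the third DOHH2 library and 3 without the first U2932 library. Among lysosomal genes 9 of 11 were higher, for example the protease CTSB at 90.1 CPM in DOHH2 against 28.6 CPM in U2932, whereas of the autophagy genes 7 of 12 were lower, for example MAP1LC3B at 60.2 CPM in DOHH2 against 152 CPM in U2932. The PI3K list had 10 higher and 4 lower of 20, with 70% past the test against 67.8% of all genes. PHLPP1, a phosphatase of AKT, had 18.4, 17.3 and 16.7 CPM in the DOHH2 libraries, against 391, 365 and 368 CPM in the U2932 libraries. It separated the lines, by 21.4-fold downward in DOHH2. PIK3R5, a regulatory subunit, was at 48.4 CPM in DOHH2 against 0.0842 CPM in U2932, and the catalytic subunit PIK3CA at 19.2 CPM in DOHH2 against 111 CPM in U2932.

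Chromatin genes gave 10 higher and 8 lower of 26. Their share past the test, 69.2%, was close to the 67.8% of all genes. The de novo DNA methyltransferase DNMT3A had 38.7, 49.5 and 41.99 CPM in the DOHH2 libraries, against 2.07, 1.81 and 1.15 CPM in the U2932 libraries. DNMT3B was at 94.8 CPM in DOHH2 against 13.5 CPM in U2932. Both were higher in every DOHH2 library, while the maintenance enzyme DNMT1 was lower, at 321 CPM in DOHH2 against 433 CPM in U2932. EZH2, the methyltransferase of the Polycomb complex and often mutated in germinal centre lymphoma, was 1.34-fold lower in DOHH2, at 132 CPM in DOHH2 against 177 CPM in U2932. Of the histone deacetylases, HDAC2 was at 268 CPM in DOHH2 against 73.2 CPM in U2932 and HDAC7 at 69.4 CPM in DOHH2 against 268 CPM in U2932. Oncofetal RNA-binding proteins, which are made in the embryo and again in tumours, marked U2932. IGF2BP1 had 0.0976, 0 and 0 CPM in the DOHH2 libraries, against 115, 113 and 119 CPM in the U2932 libraries. IGF2BP2 had no count in the 3 DOHH2 libraries, against 70.4, 57.02 and 57.2 CPM in the U2932 libraries and was at least 752-fold lower in DOHH2. IGF2BP3 was present in both lines, at 26.9 CPM in DOHH2 against 63.1 CPM in U2932. Of 22 cancer-testis antigens only PRAME and DDX43 passed the filter. DDX43, a helicase, was at 6.10 CPM in DOHH2 against 0.0392 CPM in U2932. PRAME had 1.76, 0.846 and 0.378 CPM in the DOHH2 libraries, against 0.201, 0.0296 and 0 CPM in the U2932 libraries. Its log2 difference was 3.62, and it was 2.97 without the first DOHH2 library, 5.80 without the first U2932 library and 3.04 without the third.

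Genes that were on in one line and off in the other numbered 84 in DOHH2 and 135 in U2932, counted as a mean of at least 10 CPM in one and under 0.1 CPM in the other. In 8 of the DOHH2 genes the U2932 libraries had no count, and in 26 of the U2932 genes the DOHH2 libraries had none. GYPC, a glycophorin of the red cell membrane that lymphoid cells also carry, had 38.1, 52.5 and 56.9 CPM in the DOHH2 libraries, against no count in the 3 U2932 libraries, at least 574-fold higher. BBOX1, the last enzyme of carnitine synthesis, had 28.4, 39.6 and 39.05 CPM in the DOHH2 libraries, against no count in the 3 U2932 libraries, at least 417-fold higher. MAT1A, the methionine adenosyltransferase of adult liver, had 98.05, 183 and 151 CPM in the DOHH2 libraries, against 0, 0.148 and 0.0273 CPM in the U2932 libraries. All 3 genes were present in every DOHH2 library. LAMP5, a lysosomal membrane protein of neurons and plasmacytoid dendritic cells, was at 110.5 CPM in DOHH2 against 0.0483 CPM in U2932, and COL27A1, a fibrillar collagen, at 307 CPM in DOHH2 against 0.143 CPM in U2932. On the other side, GUCA1A, an activator of retinal guanylate cyclase, had no count in the 3 DOHH2 libraries, against 66.9, 61.99 and 66.3 CPM in the U2932 libraries and was at least 795-fold lower in DOHH2. PYGO1, a cofactor of Wnt signalling, had no count in the 3 DOHH2 libraries, against 59.1, 55.2 and 41.4 CPM in the U2932 libraries, and ALDH7A1, an aldehyde dehydrogenase, no count in the 3 DOHH2 libraries, against 44.5, 42.1 and 43.04 CPM in the U2932 libraries. CUX2, a homeobox gene of neurons, had no count in the 3 DOHH2 libraries, against 22.3, 23.8 and 21.2 CPM in the U2932 libraries. None of these genes gave a read in DOHH2, at a depth where 3 counts are worth 0.0818 CPM.

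Differences gathered at certain places in the genome. Chromosome 18 had 48 genes higher and 147 lower of 257 tested, with a median log2 difference of -0.95, whereas chromosomes 7 and 10 had 51.0% and 53.4% of their genes higher. When 40 neighbouring genes were taken at a time along GRCh38, the lowest median, -3.56, lay over the protocadherin cluster of chromosome 5 (chr5:140638740-141512981), whose genes are near-identical copies and whose counts are uncertain. The next, -3.46, lay at chr18:54324358-62587709, where 35 of 40 genes were lower in DOHH2. This stretch holds MALT1, SEC11C, PMAIP1, the cargo receptor LMAN1 at 169 CPM in DOHH2 against 2439 CPM in U2932, the E-box factor TCF4 at 98.4 CPM in DOHH2 against 814 CPM in U2932 and the receptor TNFRSF11A at 0.126 CPM in DOHH2 against 53.04 CPM in U2932; BCL2 and PHLPP1 lie just beyond its end on the same chromosome. MC4R and ALPK2 were among the 3 genes within it that were higher in DOHH2, MC4R at 10.2 CPM in DOHH2 against 0.151 CPM in U2932. ALPK2 had 10.97, 3.99 and 2.16 CPM in the DOHH2 libraries, against 0.0574, 0.0592 and 0.0273 CPM in the U2932 libraries, and its log2 difference was 5.93 without the first DOHH2 library, against 6.80 with it. The window of MCL1 at chr1:147993862-150629612 had a median of -2.19, with 30 of 40 genes lower. BCL6 lay in a window at chr3:186546073-195911945 with a median of -1.81 and 31 of 40 genes lower, although TP63 within it was higher, at 23.7 CPM in DOHH2 against 0.336 CPM in U2932. On the higher side the largest median, 1.41, was at chr10:67921899-72355230, with 34 of 40 genes higher.

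On chromosome 9, both KLHL9 and FOCAD, on one side of the INK4 locus, were present in DOHH2. KLHL9, which starts at position 21329671, was at 36.7 CPM in DOHH2 against 23.6 CPM in U2932, and FOCAD, which starts at 20658309, at 47.5 CPM in DOHH2 against 38.7 CPM in U2932. HACD4, which lies between them and starts at 20999515, was lower, at 0.265 CPM in DOHH2 against 4.94 CPM in U2932. FOCAD passed the test by little (log2 difference 0.30, SE 0.12, edgeR quasi-likelihood adjusted p = 0.0282) and no longer did without any one of 4 libraries, the first or the second DOHH2 or the second or the third U2932, where the adjusted p lay between 0.0586 and 0.169, or with RLE scaling (0.0516) or no filter (0.112). From MTAP, at chr9:21802543-21937651, through CDKN2A, at chr9:21967753-21995301, to CDKN2B, at chr9:22002903-22009363, every gene tested was lower in DOHH2 and none had a mean above 0.1 CPM there. The antisense transcript CDKN2B-AS1 was at 0 CPM in DOHH2 against 6.49 CPM in U2932, but its reads cannot be told apart from those of CDKN2A and CDKN2B without the strand setting, which is not given in the sources used here. DNA was not measured in these files.

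**Figure D5:**
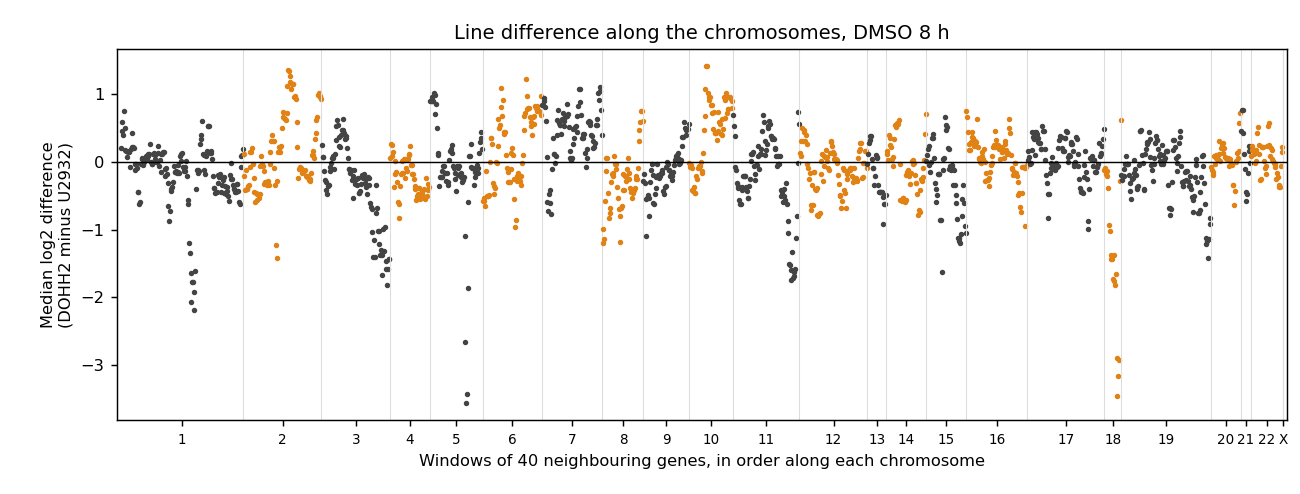
Median log2 difference (DOHH2 minus U2932) of 1515 windows of 40 neighbouring tested genes, in order along chromosomes 1 to 22. The axis label X has no windows. Alternate chromosomes are coloured dark grey and orange. Chromosome 18 reaches -3.46 and the protocadherin windows of chromosome 5 reach -3.56, while chromosomes 7 and 10 lie mostly above 0.

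The line difference was seen again in libraries that this comparison did not use. With TK for 18 h, 3 DOHH2 against 3 U2932 libraries, 11397 genes passed the test (69.2%), and 4350 of the genes higher and 4573 of those lower in DMSO at 8 h passed in the same direction, which is 79.8% of the DMSO calls and 78.3% of the TK calls; 166 passed in the opposite direction. For 7718 genes (46.8%) all 11 DOHH2 libraries of the series lay on one side of all 9 U2932 libraries. BCL6, MYC, SDC1, BCL2, MCL1, CDKN2A, IFIT3 and CXCR5 were among them. Among the genes named here that overlapped when all libraries were taken were PAX5, MME, STAT2, ATM, PKM and HLA-DPA1.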

How the data were processed

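The values are counts of reads per gene, 1 file per library, deposited by the authors. Per the submitters' processing notes, STAR, HTSeq and edgeR were used with build GRCh38.p10, with settings and strand not given in the sources used here. The 5 summary rows of each file, which held 32.7% to 43.0% of the reads in the 6 libraries, were left out. The rest was computed here: TMM scaling, edgeR 4.0.16 (limma 3.58.1, R 4.3.3) with glmQLFit and glmQLFTest over all 20 libraries and 8 groups, Benjamini-Hochberg adjustment, threshold 0.05, and genes kept where 3 libraries reached 0.288 CPM, which is 10 counts in the median library. DESeq2 1.42.0 was an alternative. A gene with no count in a line was set to 3 counts per library for its bound. The edgeR step was tested on simulated data. Same-numbered DOHH2 and U2932 libraries deviated together from their group means (r = 0.352, 0.213 and 0.399 over 10125 genes, other pairs -0.367 to 0.0363), so the numbers were also fitted as a block.

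The members and gene lists were chosen with earlier results of these data known. Genes were named by rule: the 12 largest differences in each direction at 20 CPM or more, up to 5 members per list and direction at 5 CPM or more, and a fixed set of regulators. Outside the rule, and chosen after their values were seen, are ALPK2, BBC3, BCL2A1, BCL2L11, BST2, CCND1, CCND3, CD70, CD74, CDKN2B-AS1, DNMT1, FOCAD, GPR183, HACD4, HLA-DPA1, HSP90B1, ICAM1, IFITM1, ITGA4, JAK1, KLHL9, LMAN1, MALT1, MAX, MC4R, MEF2B, MX1, OAS2, PLCG2, PRAME, PSMB9, SERPINA9, STAT2, SYK, TAP1, TCF4, TMEM173, TNFRSF11A and TP63. Promoters were matched by symbol in the RefSeq table of GRCh38.p14. Some genes of the rule are not reported here, though they stay in the counts of their lists.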

Additional observations from a re-analysis of the deposited data

Results flagged for a closer look

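Of 232 genes named, 36 had a line difference that itself differed between TK at 18 h and DMSO at 8 h, by the interaction term of the edgeR quasi-likelihood fit, adjusted over all genes (Benjamini-Hochberg); 12.4% of all tested genes did. The 2 settings differ in compound and in time, which cannot be told apart here. Each value is the log2 difference DOHH2 minus U2932 with TK at 18 h minus that in DMSO at 8 h, with 3 libraries in each of the 4 groups. In the first DOHH2 library with TK at 18 h, 56.6% of the reads were assigned to more than 1 place. The median over the 20 libraries was 27.5%. The part of that library in these changes was not tested.

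Of the p53 pathway list, 11 of 30 members (36.7%) were such genes, and CDKN1A, EDA2R and PHLDA3 were not. The share was larger in the proteasome core list, at 10 of 14 (71.4%). It was also larger among the respiratory chain genes matched by symbol, at 10 of 19 (52.6%). Close to the p53 share were the plasma cell list, at 8 of 22 (36.4%), and the mitosis list, at 8 of 23 (34.8%). MDM2 changed by 1.69, with log2 differences of 2.64 with TK at 18 h and 0.95 in DMSO at 8 h (adjusted p = 1.45e-04 by edgeR), BBC3 by 1.04, and RRM2B by 1.28 although it was lower in DOHH2 in both. Among survival genes BCL2A1 changed by -2.46, with log2 differences of -4.92 with TK at 18 h and -2.46 in DMSO at 8 h (edgeR adjusted p = 9.07e-04), whereas MCL1 changed by 0.82, PMAIP1 by 0.75 and PIM1 by 0.70. In the interferon group STAT2 changed by 1.12 and IFNAR1 by 0.79, while BST2 changed by -0.95 and IFITM1 by -0.93.

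Among B cell genes the changes were 1.44 for MME, -1.21 for ELL3, -1.16 for SERPINA9, 0.99 for MYBL1, -0.80 for CD79B and -0.70 for CD79A. MME and CD79A had the other sign with TK at 18 h, at 0.36 and -0.50. Toward the plasma cell PRDM1 changed by 0.83 and MZB1 by -1.14, and among activated B cell genes FOXP1 changed by 0.68 and LIMD1 by 0.54. CD70 changed by -0.99 and CD86 by -0.80. Of growth and division genes MXD1 changed by 1.41, MXI1 by 0.63, PTTG1 by -1.21, TERT by -0.93 and SRM by -0.68. ATM changed by 1.14, FTH1 by -0.91, ELF2 by 0.61 and COL1A1 by -2.20.

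For GYPC, CDKN2B, ALDH7A1 and CXCL9 one line had 5 or fewer counts over its 3 libraries in DMSO at 8 h, so their fitted changes of -6.20, 5.81, 4.60 and -2.66 depend on the prior count.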

How the results depend on the processing

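The counts of genes passing were recomputed in both settings, as were the list counts, list medians and named genes in DMSO at 8 h. The alternatives were DESeq2, RLE scaling, the filter dropped or raised to 50 counts, and a 1.5-fold difference. Further ones were the 6 libraries alone, the replicate number as a block, and each library left out. Not recomputed were the chromosome and window medians, overlap counts, on and off counts and antibody shares. The levels per kilobase, bounds, promoter matches and changes between the 2 settings were not recomputed either. Asking for a difference beyond 1.5-fold left 7437 genes of the line difference in DMSO at 8 h, 3470 of them higher in DOHH2, and 3723 higher with TK at 18 h. Under every other alternative these counts stayed within 1.5 times. With the replicate block in all 20 libraries 11209 genes passed in DMSO at 8 h, and 12153 in the 6 libraries alone; besides the genes given with their blocked values above, it changed no other call among the genes named. Leaving out 1 library of the comparison gave 10398 to 10812 genes. Of the 223 named genes past the threshold, 206 kept direction and call under all alternatives. Without 1 library the difference of 32 of the 223 moved by over 1.5-fold, and each still passed; 30 of these were under 1 CPM in one line, the others being HLA-DRA and IGKC. Those that changed sign had not passed: B2M was at -0.049 with the block in 6 libraries and ran from -0.63 to 0.52 with 1 library left out, SYK ran from -0.22 to 0.033 and STAT3 from -0.21 to 0.028. The cause was not tested. Of the 17 named genes that no longer passed at 1.5-fold, EBF1, EZH2, BAK1, PKM, MCM7, DNMT1 and CIITA are examples. Differences in genes under a few counts per library are limited by depth, since 3 counts are worth 0.0818 CPM in a DOHH2 library and 0.0856 CPM in a U2932 library on average, and this floor covers counting error only.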

Other observations

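Further gene groups differed in ways not described above. Of 21 immediate early genes, which cells switch on within minutes of a signal, 5 were higher and 9 lower in DOHH2, with a median log2 difference of -0.18. Their share past the test was 66.7%, against 67.8% of all genes. EGR1, a zinc finger factor induced by receptor signals, had 0.391, 1.89 and 1.75 CPM in the DOHH2 libraries, against 17.1, 20.4 and 23.6 CPM in the U2932 libraries. The groups did not overlap. EGR3, its relative, was at 1.65 CPM in DOHH2 against 12.1 CPM in U2932, whereas DUSP5, a phosphatase of ERK, had 35.9, 51.7 and 35.02 CPM in the DOHH2 libraries, against 1.89, 1.86 and 1.86 CPM in the U2932 libraries. JUNB, an AP-1 factor, was higher in DOHH2 as well, at 110.0 CPM in DOHH2 against 66.6 CPM in U2932. Of 15 ETS factors, 5 were higher and 6 lower, with 73.3% past the test against 67.8% of all genes. ETV6, a repressor often broken in leukaemia, was at 79.9 CPM in DOHH2 against 13.8 CPM in U2932, and SPI1, which encodes PU.1, at 42.1 CPM in DOHH2 against 17.1 CPM in U2932. Lower members other than SPIB included ELF2, at 18.7 CPM in DOHH2 against 47.7 CPM in U2932, and GABPA, a factor of mitochondrial genes, at 21.6 CPM in DOHH2 against 47.1 CPM in U2932.

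Of 21 genes of the NRF2 response to oxidants, 11 were higher and 5 lower in DOHH2, and NFE2L2, which encodes NRF2 itself, was lower, at 60.2 CPM in DOHH2 against 83.3 CPM in U2932. SLC7A11, the cystine importer, was at 33.7 CPM in DOHH2 against 12.4 CPM in U2932, and HMOX1, which breaks down haem, at 4.44 CPM in DOHH2 against 11.9 CPM in U2932. AKR1C2, an aldo-keto reductase, was at 10.6 CPM in DOHH2 against 0.0273 CPM in U2932, but the AKR1C genes are near-identical copies and their counts are uncertain. Among 12 chaperones 4 were higher and 3 lower, with HSPB1 at 39.6 CPM in DOHH2 against 7.98 CPM in U2932 and HSP90AA1 at 2209 CPM in DOHH2 against 3678 CPM in U2932. By annotated type, 177 of 774 lincRNAs were higher in DOHH2 (22.9%) and 343 lower (44.3%), against 36.1% higher and 33.9% lower among 12980 protein-coding genes.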
